A study of Mus musculus with 12 samples.

Results

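The 430 array probes described here were chosen by their wild-type values, as those that fell at least 2-fold between E16.5 and E17.5 in the authors' table of processed log10 values, out of 25030 spots in that table. Membership further required both E17.5 wild-type values to lie below both E16.5 wild-type values, and the knockout minus wild-type difference, averaged over the 3 stages, to stay within 1.5-fold in either direction. Of 526 probes that fell that far in wild type, 78 were left out by the genotype bound and 18 by overlap of the arrays. The wild-type fall itself is therefore given as a description, and the tests concern the change over time in the knockout arrays. Knockout values entered the choice only through the genotype bound, which uses their mean over the stages and could leave out a probe that fell in wild type and not in the knockout. The 12 arrays measured RNA of C57BL/6 mouse embryo footpad skin in 6 groups of 2 arrays each. These were embryos with a beta-catenin knockout restricted to the skin, and wild-type embryos, each taken at the stages E15.5, E16.5 and E17.5. Footpad RNA carried Cy3 and a common reference carried Cy5 on every array, knockout and wild type alike. The reference mixed RNA from a pool of cultured mouse cell lines with RNA from 129ES cells, an embryonic stem cell line. The driver of the skin-specific deletion, and whether a sample came from 1 embryo or several, are not given in the sources used here.

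Footpad skin is the hairless skin of the mouse paw, where the epidermis forms the buds of the sweat glands late in gestation while the skin around them stratifies and matures. Beta-catenin is the nuclear effector of canonical Wnt signalling, which is required early in the formation of skin appendages, and the title of the study places this knockout beside the Eda and Shh pathways in sweat gland development. A transcript that falls over this window can do so because cells stop making it or because the cells that make it become fewer, and in RNA from whole skin fewer cells of a type and less RNA per cell cannot be told apart. The files pair 0 of the members with a gene name or a genome position, so each is called by the manufacturer's code and known by its sequence.

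Each member is a DNA oligonucleotide of 60 bases, and the sequences that carry the results below are printed 5′ to 3′ as the array files give them, with the hexamer AATAAA, the canonical polyadenylation signal, in capitals. The first 5 are shown because they had the lowest late differences in the knockout among members well above background on every array.
Z00041697-1: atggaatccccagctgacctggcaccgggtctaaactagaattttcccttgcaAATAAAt
Z00049267-1: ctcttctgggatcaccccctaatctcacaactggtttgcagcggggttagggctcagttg
Z00034626-1: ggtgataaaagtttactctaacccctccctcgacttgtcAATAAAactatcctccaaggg
Z00023279-1: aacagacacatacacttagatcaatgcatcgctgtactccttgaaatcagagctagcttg
Z00046024-1: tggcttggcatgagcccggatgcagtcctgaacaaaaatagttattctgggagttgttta
The next are shown because they rose most in the knockout from E15.5 to E16.5 before falling.
Z00038466-1: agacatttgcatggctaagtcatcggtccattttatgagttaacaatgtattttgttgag
Z00023793-1: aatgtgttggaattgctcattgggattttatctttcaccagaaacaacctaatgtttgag
Z00030666-1: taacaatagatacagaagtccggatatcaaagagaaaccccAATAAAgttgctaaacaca
These are shown because they were already falling from E15.5 to E16.5, and the last because it rose in the knockout at E17.5.
Z00047077-1: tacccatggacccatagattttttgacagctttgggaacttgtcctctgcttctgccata
Z00040042-1: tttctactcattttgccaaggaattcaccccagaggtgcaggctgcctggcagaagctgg
Z00064662-1: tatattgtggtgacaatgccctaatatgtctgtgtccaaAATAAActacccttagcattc
Z00070535-1: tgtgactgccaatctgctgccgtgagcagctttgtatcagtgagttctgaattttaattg

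Most members were dim. Agilent's software marks a spot as well above background when its signal clears the local background, and in Cy3 only 92 of the 430 members (21.4%) met this on all 12 arrays, against 60.8% of the spots of the authors' table. The median member met it on 5 arrays and the median spot of the table on all 12. The share of members above background was highest at E16.5 in both genotypes. In the knockout it was 35.1% and 36.5% at E15.5, 78.6% and 75.8% at E16.5, and 34.4% and 37.9% at E17.5. In wild type it was 49.1% and 33.3% at E15.5, 69.8% and 70.7% at E16.5, and 25.1% and 23.7% at E17.5. Across all spots of the table the share moved much less, between 63.8% and 75.1% per array. At E17.5, 255 members were above background on neither knockout array and 317 on neither wild-type array, and 95 members were above background at E16.5 alone. The E16.5 and E17.5 wild-type values chose the members, so these shares describe the choice as well as the tissue.

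**Figure D1:**
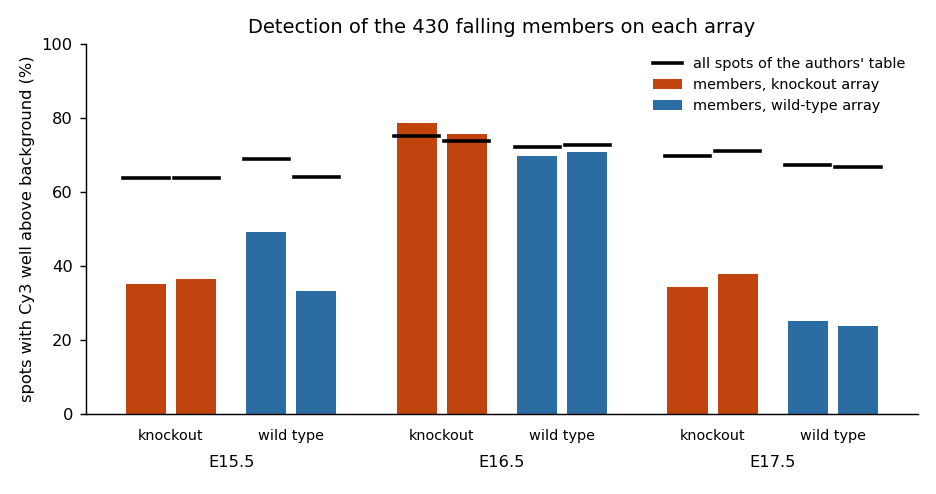
Percentage of the 430 members whose Cy3 signal was well above background on each array, by stage and genotype (bars, 1 per array), with the same percentage over all 25030 spots of the authors' table (black lines). The member bars stand near the lines at E16.5 and far below them at E15.5 and E17.5 in both genotypes.

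Tests were made on log2 ratios of footpad over reference, computed from the scanner intensities, for probes above background on at least 2 arrays, which kept 346 members and left out 84. A probe is called lower or higher where limma's moderated test gave an adjusted p under 0.05, with the Benjamini-Hochberg adjustment over all 30367 probes tested. The results turn on the 92 members above background on every array. Of these, 70 were called lower (76.1%) in the knockout at E17.5 than at E16.5, 1 higher and 21 neither, where 9.48% and 17.8% of all probes above background on every array were called lower and higher. With the genotype bound left off, an alternative added after the members were counted, 10 more probes above background on every array had the wild-type fall, and 7 of these were called lower in the knockout and 0 higher. Lower calls were then 77 of 102 (75.5%), and the median log2 difference was -1.18. The knockout log2 differences of the 92 ran from -4.04 to 0.69 with a median of -1.17, a 2.25-fold lower level at E17.5, where the median over all such probes was 0.04. Both E17.5 knockout arrays lay below both E16.5 knockout arrays for 87 of the 92, and 55 members were at least 2-fold lower. These counts were not taken over all probes above background on every array, so nothing is read from them. Among the 254 members that were above background on only some arrays, 41 were called lower and 1 higher, and the median difference was -0.11. Over all 346 tested members 111 were called lower and 2 higher, where 8.07% of all probes tested were called lower and 4707 of the 30367 higher. The 95 members above background at E16.5 alone, 9 of them called lower, passed the filter only through the stage where they were high. They are among the 254, so nothing is read from the counts of 41 and 111. The count of 111 was also smaller without any 1 of the E16.5 or E17.5 knockout arrays, and smallest without E17.5 knockout replicate 2. In wild type, where the fall chose the members, the median over the 92 was -1.12, with 73 called lower and 0 higher. The rule fixed these wild-type values, and nothing is read from their backgrounds of 2.99% lower and 5.25% higher.

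Seen per array, the median log2 ratio of the 92 members stayed level over the first 2 stages and dropped at the last in both genotypes. In the knockout it was 1.29 and 1.25 at E15.5, 1.22 and 1.47 at E16.5, and 0.29 and 0.21 at E17.5. In wild type it was 1.45 and 1.33 at E15.5, 1.22 and 1.69 at E16.5, and 0.25 and 0.37 at E17.5. Over all probes above background on every array this median stayed between 0.10 and 0.15. The Cy3 signal of the footpad carried the change, with a median knockout difference of -1.23 on the log2 scale between E17.5 and E16.5, while the Cy5 signal of the reference had a median difference of -0.01. In Cy5, 10 of the 92 members (10.9%) were called lower in this comparison, with differences down to -1.72, against 825 of the 23430 probes above background on every array (3.52%). The part of the reference signal in the ratios of these members was not tested. The 4 arrays of a stage shared 1 slide and no slide held 2 stages, so for each of these steps the effects of stage and of slide cannot be told apart. Across the 92 members the late differences of the genotypes correlated at r = 0.77, given as a description, and across all probes above background on every array at 0.88. The stage's slide is shared by both genotypes in these values. As a counterpart, the same rule turned round, a rise of at least 2-fold in wild type, gave 85 probes above background on every array. Of these, 77 (90.6%) were called higher in the knockout at E17.5 than at E16.5. The share over all probes above background on every array was 17.8%.

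**Figure D2:**
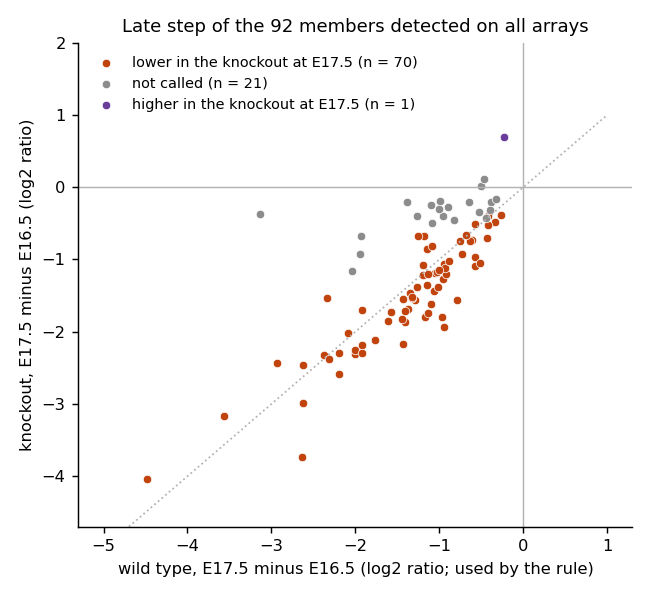
Late step of the 92 members above background on all 12 arrays: knockout difference of E17.5 minus E16.5 (vertical axis) against the wild-type difference that chose them (horizontal axis), in log2 ratio units, with the dotted line marking equal values. Of the 92 points, 70 were called lower in the knockout, 21 not called and 1 higher, and a few lie well above the line because the knockout difference was near 0 while the wild-type one was not.

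Z00041697-1 had the lowest late difference in the knockout. Its log2 ratios in the knockout were 6.44 and 6.88 at E15.5, 5.32 and 5.49 at E16.5, and 1.25 and 1.47 at E17.5. In wild type they were 6.30 and 6.68 at E15.5, 5.53 and 6.18 at E16.5, and 1.13 and 1.61 at E17.5. The E17.5 arrays of both genotypes stood far below all others, and the genotypes overlapped at E15.5 and E17.5. The late difference in the knockout was -4.04 ± 0.24 (SE, limma adjusted p = 3.01e-06), after a smaller early difference of -1.26 ± 0.24 that also passed the test (limma adjusted p = 0.000991).

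Z00049267-1 was the next by its late difference. In the knockout it had log2 ratios of 4.46 and 5.32 at E15.5, 4.24 and 4.38 at E16.5, and 0.53 and 0.61 at E17.5. In wild type it had 4.21 and 4.37 at E15.5, 4.19 and 3.95 at E16.5, and 0.93 and 1.93 at E17.5. Both E17.5 knockout arrays lay below both E17.5 wild-type arrays, but that difference of -0.86 ± 0.30 (SE) did not pass the test (limma adjusted p = 0.209, and 0.049 with the replicate block as a random term). Both E15.5 knockout arrays lay above both E16.5 ones, but the early difference of -0.58 ± 0.30 did not pass the test either (limma adjusted p = 0.125). The late difference in the knockout was -3.74 ± 0.30, or 13.4-fold lower (limma adjusted p = 2.25e-05).

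Z00034626-1 had knockout log2 ratios of 0.71 and -0.39 at E15.5, 0.57 and 1.06 at E16.5, and -2.31 and -2.38 at E17.5. In wild type its arrays gave 0.49 and 0.28 at E15.5, 0.16 and 1.74 at E16.5, and -2.91 and -2.33 at E17.5. Its replicates lay apart at the earlier stages, by 1.1 in the E15.5 knockout and 1.58 in the E16.5 wild type, and close together in the E17.5 knockout. It was 8.96-fold lower in the knockout at E17.5 than at E16.5 (limma adjusted p = 0.000813). Z00029389-1, above background on 11 arrays, had knockout log2 ratios of -1.09 and -1.12 at E17.5, against 2.31 and 2.22 at E16.5, a 10.3-fold lower level (limma adjusted p = 4.22e-05). Its E17.5 wild-type arrays gave -1.09 and -0.30, against 2.17 and 2.31 at E16.5, with only 1 of the E17.5 arrays above background.

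Z00023279-1 and Z00046024-1 rose before they fell in the knockout. Z00023279-1 had knockout log2 ratios of 1.44 and 0.90 at E15.5, 2.40 and 2.69 at E16.5, and -0.50 and -0.38 at E17.5. In wild type the same probe had 1.79 and 1.48 at E15.5, 2.21 and 2.84 at E16.5, and -0.40 and 0.20 at E17.5. The early knockout difference was 1.37 ± 0.25 (SE, limma adjusted p = 0.000832) and the late one -2.99 ± 0.25 (limma adjusted p = 2.80e-05). Z00046024-1 had an early knockout difference of the same size, 1.37 ± 0.32 (limma adjusted p = 0.00364), and a late one of -2.58 ± 0.32 (limma adjusted p = 0.000302). Its wild-type arrays were at 2.12 and 2.04 at E15.5, 1.75 and 2.73 at E16.5, and -0.26 and 0.36 at E17.5, so that the E16.5 arrays fell on either side of the E15.5 ones.

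**Figure D3:**
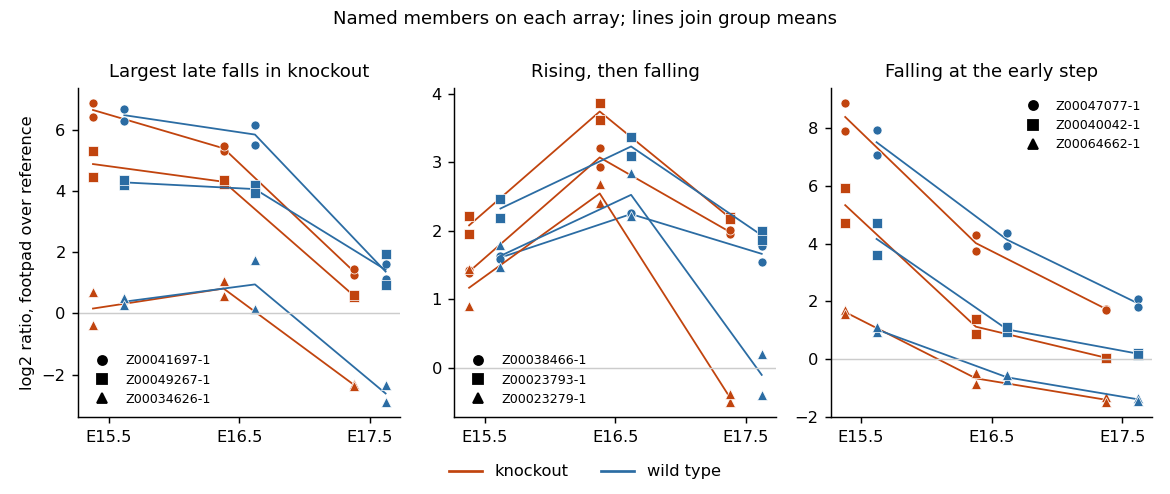
Log2 ratio of footpad over reference (vertical axis) by stage (horizontal axis) for 9 members. Of these, 3 had the largest late falls in the knockout among members above background on all arrays. The others are 3 that rose and then fell and 3 that fell already at the early step. Points are single arrays, 2 per group, and lines join group means; the fall of Z00041697-1 at E17.5 is the deepest, and Z00047077-1 falls mostly before E16.5.

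Z00075904-1 had the lowest wild-type change of the rule, -1.2997 on the authors' log10 scale, ahead of -1.2895 for Z00029389-1 and -1.2302 for Z00041697-1. On the log2 scale computed here its E17.5 wild-type arrays gave -1.87 and -1.83, against -0.40 and 0.19 at E16.5. Neither E17.5 wild-type array was above background, so the wild-type fall is only bounded, at least 3.22-fold against the lowest signal that was above background. In the knockout it gave -1.87 and -1.87 at E17.5, against 0.12 and 0.82 at E16.5, and was 5.05-fold lower at E17.5 (limma adjusted p = 0.000117), with 1 of the E17.5 knockout arrays above background.

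At the other end, 2 members were called higher in the knockout at E17.5. Z00070535-1 had knockout log2 ratios of 1.99 and 1.63 at E15.5, 0.74 and 0.67 at E16.5, and 1.56 and 1.23 at E17.5. In wild type it had 2.06 and 1.64 at E15.5, 0.95 and 0.71 at E16.5, and 0.55 and 0.65 at E17.5. The genotypes overlapped at E15.5, and at E17.5 both knockout arrays stood above both wild-type arrays. The late knockout difference was 0.69 ± 0.17 (SE, limma adjusted p = 0.0129), and the adjusted p ranged from 0.00394 to 0.736 over the alternative settings. It was lost without either E16.5 knockout array (0.72 and 0.65), without E17.5 knockout replicate 1 (0.52), and with the authors' values (0.31), median centring (0.47) or Agilent's processed signals (0.41). Z00008740-1, called higher by 0.32 ± 0.09 (limma adjusted p = 0.0227), was above background on 3 arrays in all, and its call was lost without any 1 of the knockout arrays of these stages, at 0.30 to 0.33, and with the authors' values or the processed signals, at 0.83 in both. Z00039004-1 and Z00028968-1, with differences of 0.33 and 0.22, did not pass the test (limma adjusted p = 0.0766 and 0.16).

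At the earlier step members were called in both directions, as were probes in general. Between E15.5 and E16.5 in the knockout, 73 of the 346 members tested were called lower and 66 higher, against backgrounds of 30.3% and 25.5% of all probes tested. This split moved with the scaling, to 53 lower and 103 higher with Agilent's processed signals, 52 and 99 with the authors' values, and 112 and 49 with median centring. The 346 include the 95 members above background at E16.5 alone, which passed the filter only through that stage. Nothing is therefore read from the early counts over the 346. Among the 92 members above background on every array, 26 were called lower, 25 higher and 41 neither, against 35.2% and 28.2% of all such probes, and the median difference was -0.05. Under median centring, where the median difference over all probes was 0.16, these were 21 lower and 43 higher, and without E16.5 knockout replicate 2 the number called higher was 16. The shares over all probes in those alternative fits are not given here, so nothing is read from their counts. In the fit used here the shares of the 92 called in either direction lay near the background or below it, unlike those at the late step. In wild type, whose E16.5 arrays belong to the rule, 22 of the 92 were called lower and 19 higher, against 28.6% and 22.8% of all such probes.

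Of the 25 members that rose early in the knockout, 16 were also called higher at the early step in wild type. Group means were highest at E16.5 for 24 of the 25 in the knockout and 23 in wild type. Over the 3 stages their median log2 ratios were 1.17, 1.98 and 0.50 in the knockout and 1.40, 2.02 and 0.60 in wild type. Of these, 21 were called lower at the late step in the knockout, and 17 ended below their E15.5 level there. The 26 that fell early had knockout medians of 2.34, 1.39 and 0.20 over the stages and wild-type medians of 1.96, 1.22 and 0.40. All 26 ended below their E15.5 level in the knockout, and 18 of them were called lower and 1 higher at the late step. The 41 that were called neither way had knockout medians of 1.14, 0.98 and -0.17 and wild-type medians of 0.98, 1.29 and 0.10. At the late step 31 of these 41 were called lower in the knockout. The classes share the E16.5 knockout arrays with the late step, so an array error there would push the early and late differences in opposite directions. The class call fixes the direction of the early knockout step, and the rule that of the late wild-type step. The E16.5 peaks of the 25 and the final levels of the 26 thus follow largely from the choice, and nothing is read from them. The calls within each class were not counted over all probes above background on every array. Nothing is read from those class counts either.

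**Figure D4:**
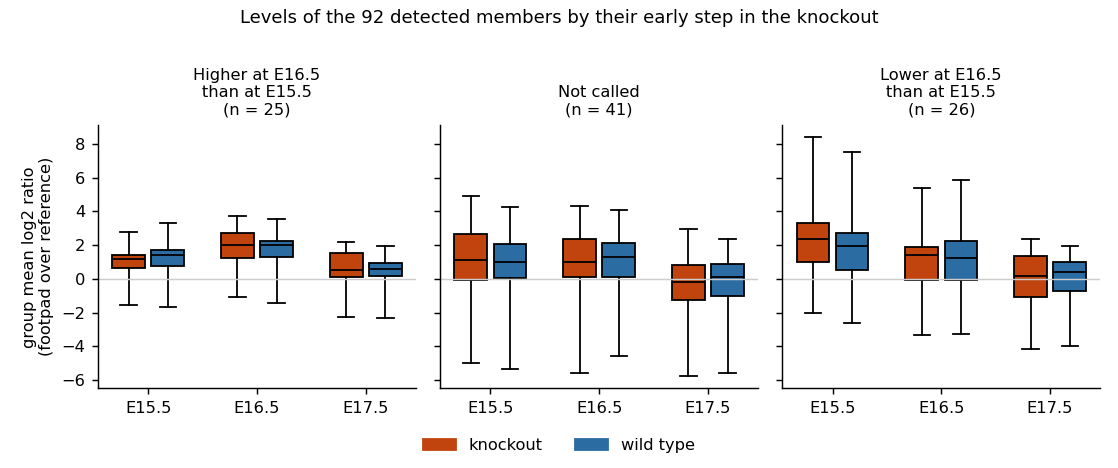
Group mean log2 ratio of footpad over reference (vertical axis) at each stage for the 92 members above background on all arrays, split by the call of E16.5 against E15.5 in the knockout into 25 higher, 41 not called and 26 lower. Boxes give the quartiles and median over members and whiskers the lowest and highest member. The medians of the first class are highest at E16.5, those of the last descend at both steps, and all 3 classes have their lowest medians at E17.5. The class call fixes the direction of the early knockout step, and the rule that of the late wild-type step.

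Among members that rose early, Z00038466-1 had the highest difference. Its knockout log2 ratios were 1.43 and 1.38 at E15.5, 2.93 and 3.21 at E16.5, and 1.95 and 2.01 at E17.5. In wild type they were 1.63 and 1.59 at E15.5, 2.23 and 2.26 at E16.5, and 1.55 and 1.78 at E17.5. The peak stood higher in the knockout, by 0.83 ± 0.11 (SE), than in wild type at E16.5 (limma adjusted p = 0.00374), although the rule bounded the mean of the 3 genotype differences. The early rise in the knockout was 3.17-fold (limma adjusted p = 8.35e-07) and the level at E17.5 was 2.13-fold lower than at E16.5 (limma adjusted p = 7.72e-05).

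Z00023793-1 followed the same course, with knockout log2 ratios of 2.21 and 1.95 at E15.5, 3.62 and 3.86 at E16.5, and 2.20 and 2.17 at E17.5. Its wild-type arrays gave 2.47 and 2.18 at E15.5, 3.37 and 3.09 at E16.5, and 2.00 and 1.87 at E17.5. It returned in the knockout to the level of E15.5, after a 3.16-fold rise (limma adjusted p = 4.34e-06) and a 2.95-fold fall (limma adjusted p = 3.93e-05). Z00030666-1 had knockout log2 ratios of 1.25 and 1.59 at E15.5, 2.92 and 3.10 at E16.5, and 1.51 and 1.43 at E17.5. It rose 3.02-fold (limma adjusted p = 5.24e-05) and fell 2.92-fold (limma adjusted p = 0.000330) in the knockout. Z00024540-1, the fourth by its early difference of 1.41, rested on 1 array: its E16.5 knockout values were 2.40 and 0.34, and without the higher of these, replicate 1, the difference was 0.38 (limma adjusted p = 0.149).

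The 4 members with the lowest early differences in the knockout had smaller late ones. Z00047077-1 had knockout log2 ratios of 7.91 and 8.86 at E15.5, 3.73 and 4.30 at E16.5, and 1.75 and 1.70 at E17.5. In wild type it had 7.08 and 7.94 at E15.5, 3.91 and 4.35 at E16.5, and 2.07 and 1.79 at E17.5. Each stage stood clear of the next in both genotypes, and the genotypes overlapped at the first 2 stages. In the knockout the early fall was 20.7-fold (limma adjusted p = 2.23e-06) and the late one 4.88-fold (limma adjusted p = 0.000825).

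Z00040042-1 had knockout log2 ratios of 4.72 and 5.94 at E15.5, 0.86 and 1.38 at E16.5, and 0.04 and 0.04 at E17.5. Its wild-type values were 3.61 and 4.71 at E15.5, 0.93 and 1.12 at E16.5, and 0.22 and 0.15 at E17.5. The early fall in the knockout was 18.6-fold (limma adjusted p = 7.26e-06), and the late difference of -1.08 ± 0.38 (SE) did not pass the test (limma adjusted p = 0.0649). Z00064662-1 fell at both steps in the knockout, by 2.30 and then by 0.74 on the log2 scale (limma adjusted p = 3.89e-07 and 0.00253). Z00022872-1, 5.01-fold lower in the knockout at E16.5 than at E15.5 (limma adjusted p = 0.000723), gave -2.84 and -3.00 in the knockout at E17.5, against -2.46 and -2.58 at E16.5, a late difference that did not pass the test (limma adjusted p = 0.536). Its E16.5 wild-type arrays gave -2.17 and -0.33, so that only 1 of them stood well above the E17.5 wild-type values of -2.54 and -2.51.

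Genotype differences at single stages are given as a description, since the rule bounds their mean. Of the 92 members, 6 were called higher and 2 lower in the knockout at E15.5, against 3.43% and 3.53% of all probes above background on every array. At E16.5, 3 were called higher and 1 lower, against 0.516% and 1.72%, and at E17.5, 2 higher and 0 lower, against 0.768% and 0.636%. Z00064662-1 was 1.52-fold higher in the knockout at E15.5 (limma adjusted p = 0.0280), and Z00068788-1 was 1.54-fold lower there (limma adjusted p = 0.0359). The counts moved with the replicate number as a block. As a random term with the stage it gave 15 higher and 7 lower at E15.5, 13 and 4 at E16.5, and 5 and 6 at E17.5, where the shares of all probes above background on every array were 13.9% and 11.4%, 3.8% and 5.71%, and 5.66% and 2.92%. As a fixed term it gave 8 higher and 3 lower at E15.5, 4 and 1 at E16.5, and 2 and 2 at E17.5. The shares of all such probes were then 6.12% and 5.33%, 1.22% and 2.6%, and 1.79% and 1.01%. The counts without the block also rested on single arrays and moved as each array was left out, more at E15.5 and E16.5 than at E17.5. The shares over all probes in those fits are not given here.

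The genotypes were also apart at E15.5 in relation to the early step. Of the 26 members that fell early in the knockout, 21 stood higher in the knockout than in wild type at E15.5, with a median difference of 0.48 on the log2 scale. Of the 25 that rose early, 5 stood higher in the knockout, and the median difference was -0.24. Those classes use the E15.5 knockout arrays themselves. Under them, 77% of all probes above background on every array that fell stood higher in the knockout (median 0.17). Of such probes that rose, 21.4% did (median -0.16). Classes were also taken from the wild-type early step, and these use the E15.5 wild-type arrays. Under them, 15 of the 22 members that fell stood higher in the knockout (median 0.21). Of the 19 that rose, 4 did (median -0.21). All probes above background on every array did likewise under the wild-type classes: 63.4% of those that fell stood higher in the knockout (median 0.09), and 30.6% of those that rose (median -0.12). The relation was thus not particular to the members, and neither it nor a cause for it was tested. The knockout and wild-type arrays held different positions on each slide, so genotype and position cannot be told apart.

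Some members owed their place to 1 array. E16.5 wild-type replicate 2 exceeded replicate 1 by 1 or more on the log2 scale for 16 of the 92 members, against 49 of all 23430 probes above background on every array (0.209%). By any amount, replicate 2 stood above replicate 1 at E16.5 for 61 of the 92 in wild type and 73 in the knockout. Those 2 counts were not taken over all probes. The rule takes the mean of the 2 E16.5 wild-type arrays, so a high value on 1 of them helped a probe to become a member. The count of 16 therefore follows in part from the choice, and nothing is read from its size against the 0.209%. Members with replicate 1 higher by 1 or more were not counted. Using each E16.5 wild-type array alone, 61 of the 92 passed the rule's 2-fold threshold with either, 25 with replicate 2 only and 6 with replicate 1 only. Of the 61, 53 were called lower at the late step in the knockout, with a median of -1.54. Among the 25, 12 were called lower, and the median was -0.67. Over all 430 members, 293 passed with either array, 78 with replicate 2 only and 59 with replicate 1 only.

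Z00025977-1, named after its values were seen, was the extreme. At E16.5 it had 0.99 and 0.92 on the knockout arrays and 0.87 and 6.34 on the wild-type arrays. At E17.5 it had 0.57 and 0.61 on the knockout arrays and 0.49 and 0.44 on the wild-type arrays, so that 1 array alone stood apart at these stages. Its late difference in the knockout did not pass the test (limma adjusted p = 0.865). Z00006684-1, chosen in the same way, had -3.77 and -3.52 on the E16.5 knockout arrays and -3.86 and -0.95 on the E16.5 wild-type arrays. Of the 22 members that were not called lower at the late step in the knockout, 13 had passed the threshold with replicate 2 only.

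**Figure D5:**
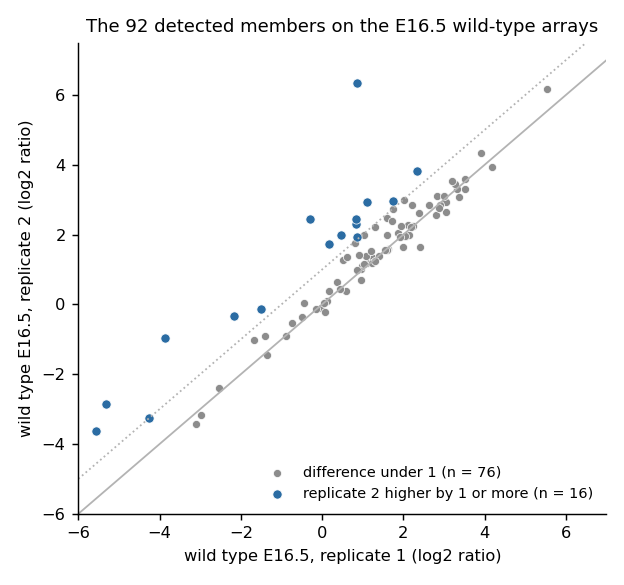
Log2 ratio of the 92 members above background on all arrays on E16.5 wild-type replicate 2 (vertical axis) against replicate 1 (horizontal axis), with the solid line marking equal values and the dotted line a difference of 1. The 16 blue points lie at or above the dotted line, and the one at the top, Z00025977-1, is at 6.34 on replicate 2 and 0.87 on replicate 1.

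How far the dim members fell differed between treatments of the signals. For the 254 tested members that were above background on some arrays only, the median knockout difference between E17.5 and E16.5 was -0.86 in the authors' values, -0.86 in Agilent's processed signals, -0.22 with a normexp offset of 10 and -0.11 with the offset of 50 used here. In wild type the corresponding medians were -1.40, -1.45, -0.34 and -0.15. An offset pulls ratios of signals near background towards 0, and plain subtraction spreads them. The last 2 treatments differ only in the offset. The first 2 were also not given the loess normalization used here, so the part of background in their larger falls was not tested. For the 92 members the same 4 treatments gave knockout medians of -1.46, -1.52, -1.36 and -1.17 and wild-type medians of -1.32, -1.36, -1.18 and -1.12. Knockout differences were below 0 for 90 of the 92 with the first 3 treatments and 89 with the last. A wild-type fall of at least 2-fold, which all members have in the authors' values by the rule, was met by 87 of the 92 with the processed signals, 63 with the offset of 10 and 56 with the offset of 50. Of the 254 dim members it was met by 227, 17 and 3.

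At the threshold of the rule, the members just inside were Z00025437-1 and Z00068788-1, with wild-type changes of -0.3016 and -0.3023 on the authors' log10 scale. Just outside were Z00028226-1 and Z00049012-1, each at -0.3007. Z00025437-1 was 1.63-fold lower in the knockout at E17.5 than at E16.5 (limma adjusted p = 0.00197), and for Z00068788-1 the difference of -0.21 did not pass the test (limma adjusted p = 0.353). Z00028226-1 was above background on 0 arrays and Z00049012-1 on 7.

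In sequence the members resembled the rest of the array but for 1 feature of those above background on every array. The median GC content was 43.3% over all 430 members and 45% over the 92, where it was 43.3% over the authors' table. AATAAA was present in 16 of the 92 (17.4%), against 9.5% of the probes of the table that were above background on every array and 9.07% of all members. On the opposite strand the hexamer was found in 4.35% of the 92 and 3.44% of those probes. These shares are descriptions of the letters in each probe. Z00041697-1, Z00034626-1, Z00030666-1 and Z00064662-1 hold it. Only 1 pair of members shared a run of at least 20 bases, Z00075782-1 and Z00075784-1, with 43 bases in common. Their late knockout differences of -0.16 and -0.36 did not pass the test (limma adjusted p = 0.525 and 0.0825).
Z00075782-1: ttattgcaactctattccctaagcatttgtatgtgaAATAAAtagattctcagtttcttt
Z00075784-1: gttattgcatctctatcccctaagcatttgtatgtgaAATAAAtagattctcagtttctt
One member, Z00029486-1, matched whole to a promoter window of the RefSeq table (GRCm38.p6), on the strand opposite to the gene Gm36377, at chr13:70655787-70656086. It was above background on 5 arrays, and its knockout log2 ratios were 0.36 and 0.19 at E15.5, 0.58 and 0.60 at E16.5, and 0.31 and 0.31 at E17.5. In wild type they were 0.39 and 0.27 at E15.5, 0.46 and 0.50 at E16.5, and 0.25 and 0.33 at E17.5. Both steps passed the test in the knockout, at 0.32 ± 0.09 (SE, limma adjusted p = 0.00944) and -0.28 ± 0.09 (limma adjusted p = 0.0377).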

How the data were processed

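The deposited array files, per the file headers, hold spot intensity values read with Agilent Feature Extraction 9.5.1.1, with processed signals that are background-subtracted and dye-normalized. The authors' deposited table gives log10 values after processing, and the members were drawn from its 25030 spots. Its values differ between arrays as log ratios of footpad over reference do, and the selection of its spots is not stated.

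From the deposited intensities, background was corrected in limma 3.58.1 under R 4.3.3 (normexp, offset 50, mean signals), each array was loess-normalized with its control spots given weight 0, and log2 ratios with footpad on top were averaged per probe, without outlier spots. Of 42006 probes, 11638 dim ones, with Cy3 above background on fewer than 2 arrays, were not tested, nor was 1 whose spots were outliers. The number of arrays limits the precision. limma's moderated test was fitted to the 6 group means over all 12 arrays, with 6 residual and 4.7 prior degrees of freedom. Whether the 2 samples of a group are separate animals is not in the labels, and p-values then measure only the spread between samples, which may be technical.

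Named probes were the 6 members with the lowest and 4 with the highest late knockout difference, the 4 highest and 4 lowest early ones, the 3 with the lowest wild-type change of the rule, and 2 on either side of its threshold. The members, this rule and the tests were chosen with earlier results of these data known. Gene lists, cell type markers and the targeted transcript were not analysed here, since no probe was paired with a gene, so genotype labels and tissue markers were not checked. Every slide held knockout arrays at positions 1 and 2 and wild type at 3 and 4.

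Replicate numbers are shared by the groups, and nothing in the labels says what a number marks. Deviations of same-numbered arrays from their group means correlated at 0.08 between the E16.5 and E17.5 knockouts and -0.02 between the E15.5 and E16.5 knockouts, with higher values of 0.38 between E16.5 and E17.5 wild type, 0.34 between E16.5 knockout and E17.5 wild type, and 0.24 between E15.5 wild type and E16.5 knockout. The numbers were therefore not taken to pair the samples across stages. Between knockout and wild type of 1 stage the values were 0.61 (E15.5), 0.25 (E16.5) and 0.16 (E17.5), and those comparisons are given as descriptions, with blocked counts beside them. Alternatives changed the background correction, normalization, channel, filter, weights, block, samples and values. Counts over the 92 members, membership by 1 array, the rule without its genotype bound and classes by the wild-type step were added after seeing the data.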

Additional observations from a re-analysis of the deposited data

How the results depend on the processing

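The number of members lower in the knockout at E17.5 than at E16.5 (111) moved by over 1.5 times only with the stricter filter on all arrays (72) and without E17.5 knockout replicate 2 (71), with a range of 71 to 127 when each array was left out. The number higher (2) was 1 with the authors' values, 1 with the stricter filter and 4 with array weights, and 0 to 3 with an array left out. At the early step, the number lower (73) was 112 with median centring and 26 with the stricter filter (50 to 78 with an array left out), and the number higher (66) was 103 with the processed signals and 27 with the stricter filter (44 to 68). The stricter filter leaves only the brighter members to be tested; the cause of the other shifts was not tested.

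Over the 92 members above background on every array, 60 to 74 were lower at the late step with an array left out and 65 to 75 under the other alternatives. The 1 higher was 0 with median centring and with the authors' values, and 0 to 1 with an array left out. At the early step 21 to 30 were lower and 16 to 27 higher with an array left out, and 43 were higher with median centring. With the replicate block as a fixed term, 119 members were lower and 2 higher at the late step and 78 lower and 70 higher at the early one; as a random term with the stage (correlation 0.40), 110 and 2, and 72 and 64. The block moved none of these by over 1.5 times. The late knockout difference of Z00028968-1 turned to -0.27 with the authors' values, and the wild-type difference of Z00049012-1 to 0.09 with median centring and 0.01 without E17.5 wild-type replicate 1, in a range of -0.18 to 0.01 with an array left out. Dim probes, near background on most arrays, set the limit of what these arrays show about the members.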
